A study of Mus musculus with 38 samples.

Results

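The regions described here are constant CTCF sites without other factors. At these places, outside promoters, CTCF was bound both before and after Notch stimulation of a lymphoid progenitor line. The other factors meant are RUNX1, Med12 and p300 in cells without guide RNAs, which had no peak there. The regions were selected on the deposited peak lists. A peak of the LP CTCF list was kept when it was not annotated as a promoter, did not lie in a SINE B2 repeat, overlapped a peak of the Phase 1 CTCF list by at least 1 bp, and overlapped no peak of the LP or Phase 1 lists of RUNX1, Med12 or p300. By this rule 21280 of 45388 LP CTCF peaks (46.9%) were members. Their constancy, their position away from promoters and their lack of the other factors are therefore how they were chosen and not results.

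The cells were Cas9-LP, a mouse lymphoid progenitor line made from fetal liver progenitors that lacked Ebf1, a factor needed for the B lineage, and that carried Cas9 knocked into Rosa26. All groups shared both alleles. LP cells were kept on OP9 stromal cells. Phase 1 cells were grown for 2 days on OP9-DLL4, stroma that displays a ligand of Notch, DLL4. Phase 2 cells, a later Notch-dependent stage that the paper places after commitment to the T lineage, were mapped for Notch1-IC only. The medium of the line held SCF, Flt3L and IL-7. Chromatin immunoprecipitation with sequencing (ChIP-seq) was performed for CTCF in 2 LP and 2 Phase 1 replicates, and each pair was deposited as a single peak list. Per the labels the whole series held 38 samples in 19 groups, and 17 of these groups had a peak list. Cells with a guide RNA against Cbfb (sgCbfb), Ctcf (sgCTCF) or Med12 (sgMed12), or with a control guide (sgCont), came from the same line. The results are those of a cultured line, and the files hold no expression values with which its identity could be checked.

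CTCF is a zinc finger protein that binds a long, well conserved DNA motif. Together with cohesin it forms the bases of chromatin loops and the borders of topological domains, and many of its sites are occupied in every tissue. The motif has a direction, and loops form mostly between sites whose motifs point towards each other. RUNX1 is a transcription factor needed for blood and T cell development, Med12 belongs to the kinase module of Mediator, and p300 is an acetyltransferase of active enhancers.

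The sequences come first, because the motif is the part of these sites that the rule did not use. A matrix of 20 positions was learned from 15080 LP CTCF sites without B2 on the odd-numbered autosomes, and its commonest base at each position is printed here with the 12 core positions in capitals.
matrix: gtggCCACCAGGGGGCgcta
A site was counted as holding a match when the best score in the 200 bp around the peak centre, on either strand, passed 10.0 bits, the level passed in 5% of windows 2 kb to either side. Of the 21271 members on assembled chromosomes, 18790 (88.3%, 95% Wilson interval 87.9 to 88.8%) held a match, against 4.49% of the members' own flanking windows and 84.3% of all LP CTCF peaks. The 4 commonest spellings of the core among members are shown because they make plain how little a single spelling covers.
commonest: CCAGCAGAGGGC
next: CCAGCAGGGGGC
after these: CCACCAGGGGGC
then: CCACTAGAGGGC
These were found in 550, 498, 457 and 438 members, that is 2.93%, 2.65%, 2.43% and 2.33% of the members with a match. In all, 1915 different cores occurred, 822 of them a single time. Among the 10 commonest cores, CCAGAAGAGGGC (336 members) had the lowest median LP peak score, 46.2, while the other commonest cores ranged from 111.5 to 134.1. That core also took a larger share of matches at CTCF-only sites found in a single stage (3.22%) than at members (1.79%).

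Members with the highest LP scores are shown next with the core in capitals and 10 bases to each side of the 20 matrix positions. Sequences are from the mouse reference GRCm38 (mm10), read 5′ to 3′ along the strand of the match. The score is the authors' normalized HOMER peak score. Its scale is not given in the sources used here, so a score was only ranked within its own list. The first in rank, on the unplaced scaffold Un_JH584304 at positions 59063 to 59463, had a score of 2691.9 in LP and 3325.7 in Phase 1. It lay 32 bp from an LP Med12 peak, and its sequence was not searched. Ranks 2 to 5 lay close together on the Y chromosome, in introns of Gm47283, all on the minus strand.
chrY:90803616-90803655: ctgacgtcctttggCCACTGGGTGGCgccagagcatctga
chrY:90807772-90807811: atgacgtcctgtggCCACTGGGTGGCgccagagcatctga
chrY:90800743-90800782: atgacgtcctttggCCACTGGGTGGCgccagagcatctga
chrY:90808843-90808882: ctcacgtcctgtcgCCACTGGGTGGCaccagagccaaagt
Their LP scores were 903.6, 842.4, 826.0 and 769.5, and their Phase 1 scores 1078.6, 1011.5, 986.8 and 889.4. They share 1 core, the first 3 are nearly identical over the bases shown, and the aligner settings in the study's methods kept reads that fit up to 10 places, so reads may have been shared among them and these 4 values may not be independent. They were also the only 4 members on the Y chromosome.

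Ranks 6 to 10 lay on ordinary chromosomes.
chr10:79925398-79925437: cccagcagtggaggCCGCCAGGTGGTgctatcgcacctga
chr10:80165226-80165265: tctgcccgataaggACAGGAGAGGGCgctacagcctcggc
chr14:54228071-54228110: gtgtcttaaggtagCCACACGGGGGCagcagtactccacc
chr17:35997178-35997217: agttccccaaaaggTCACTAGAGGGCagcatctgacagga
chr11:100893609-100893648: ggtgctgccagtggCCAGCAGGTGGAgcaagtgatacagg
The first of these 5, with a score of 604.4 in LP and 798.7 in Phase 1, was intergenic, 1.60 kb before the start of Arid3a. The next, at 595.1 and 738.8, lay 0.78 kb before the start of Cirbp, which encodes a cold-inducible RNA-binding protein. The site on chromosome 14, at 563.7 and 807.4, was intergenic, 3.97 kb past the end of Trac, the constant gene of the T cell receptor alpha chain. The centre of its match was at -86.5 bp from the peak centre along the chromosome, the focus ratio (HOMER's fraction of reads that lie on the side of the centre given by their strand) was 0.745 against a members' median of 0.883, and a Phase 1 RUNX1 peak lay 223 bp away. The site on chromosome 17, at 540.0 and 736.5, was in an intron of A930015D03Rik, and the site on chromosome 11, at 508.3 and 615.0, was in a non-coding exon of Stat3, the gene of a cytokine-activated transcription factor. All 9 searched sites of the 10 held a match.

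The members were the largest group left by the rule. Of the LP CTCF peaks, 3871 were annotated as promoters and 11452 as SINE B2 outside promoters, which left 30065. Of all LP CTCF peaks, 90.5% overlapped a Phase 1 CTCF peak and 76.7% overlapped no RUNX1, Med12 or p300 peak. Of the 30065, 27582 were constant, and 6302 of these overlapped another factor. These 6302 are called co-bound sites below. Another 1677 LP peaks and 1331 Phase 1 peaks met the same conditions but were found in a single stage, and these 3008 are called stage-specific CTCF-only sites. Each member overlapped a different Phase 1 peak, and the peak centres were 8.00 bp apart at the median, with 87.3% of members within 20 bp.

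Members had a median LP score of 81.8 (quartiles 40.4 and 141.0; lowest 15), which stood at percentile 56.8 of the LP list, and a median Phase 1 score of 83.9 (quartiles 41.8 and 144.1), at percentile 56.2 of the Phase 1 list. Co-bound sites had a median LP score of 170.7, and LP-specific CTCF-only sites one of 19.7. The rule did not use scores, but a peak near the lowest score of a list is easily missing from another list, so these medians are a description. The order of members was much alike in both stages: Spearman's rho of the LP and Phase 1 scores was 0.964 over 21280 sites, each of them 1 position read in both lists. When each list was divided into 5 equal score classes, from 1 (lowest) to 5 (highest), 15850 members (74.5%) were in the same class in both stages, 5338 (25.1%) were 1 class apart, and 92 (0.432%) were 2 or more classes apart, 60 of them higher in Phase 1 and 32 higher in LP.

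**Figure D1:**
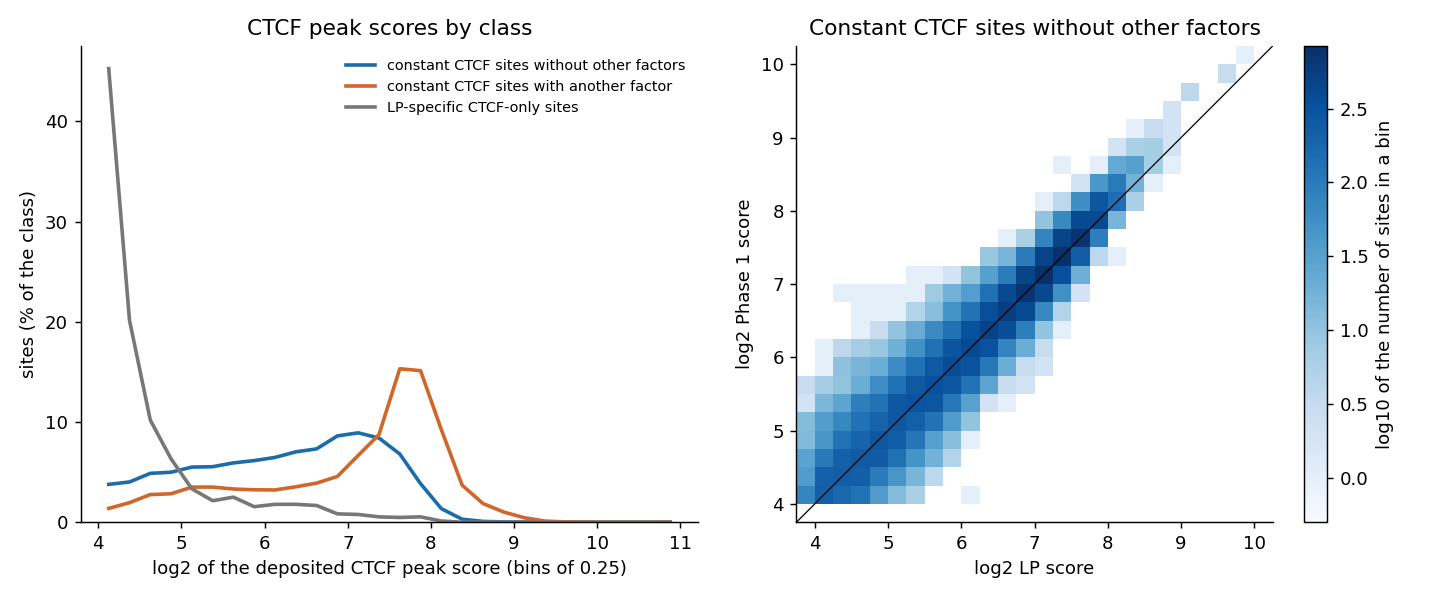
Left, the distribution of the deposited CTCF peak score (log2, bins of 0.25) for 21280 constant CTCF sites without other factors, 6302 constant sites with another factor and 1677 LP-specific CTCF-only sites, as a percentage of each class. Right, the number of members in each bin of LP score and Phase 1 score on log10 colour, with the line of equal score; the scaffold site of score 2691.9 lies beyond the axes, and the members form a single band about the line.

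A match to the CTCF matrix was more frequent in members than in both other classes. At 88.3%, the share with a match was above that of co-bound sites (78.2%, interval 77.1 to 79.2%; 4925 of 6300) with an odds ratio of 2.11 (two-sided Fisher's exact test, p = 3.21e-85, adjusted p = 1.12e-84 over 7 tests). It was also above that of stage-specific CTCF-only sites (69.3%, interval 67.6 to 70.9%; 2083 of 3007) with an odds ratio of 3.36 (Fisher's exact test, adjusted p = 3.59e-143). These tests count sites and not cultures, and their intervals cover counting error only. The LP CTCF peaks from which the matrix was learned included members. On the chromosomes not used to learn it, the odds ratios were 1.99 against co-bound and 3.17 against stage-specific CTCF-only sites. A single consensus string with 4 ambiguous letters, the CTCF consensus string, pointed the same way at lower shares: it was in 23.9% of members, 20.4% of co-bound sites and 9.81% of stage-specific sites, with 16.6% of all LP CTCF peaks (odds ratios 1.23 and 2.89, Fisher's exact test, adjusted p = 4.55e-09 and 8.05e-79). With B2 peaks kept, the string's odds ratio against co-bound sites was 0.982. A high share with a matrix match was not particular to members. Constant B2 sites without other factors, which the rule left out, held a match in 97.6% (9296 of 9524), and the string in 6.54%. Among sites with a match, the median matrix score was 16.8 bits in members, 16.7 bits in co-bound sites and 14.8 bits in stage-specific sites.

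The difference from co-bound sites was widest at the low scores. From score class 1 to score class 5 of the LP list, 78.0%, 80.3%, 87.3%, 94.1% and 96.1% of members held a match. Among co-bound sites the shares were 35.6%, 41.1%, 58.5%, 82.0% and 93.9%. In score class 5 the groups stood a few points apart, with intervals of 95.4 to 96.6% and 93.0 to 94.7%, while in score class 1 the intervals were 76.4 to 79.5% and 30.9 to 40.5%. Pooled over the 5 score classes, the Mantel-Haenszel odds ratio against co-bound sites was 4.05. Against stage-specific CTCF-only sites, each classed by score within the list of its own stage, the pooled odds ratio was 1.72. For the CTCF consensus string it was 1.52. Both were lower than the unpooled odds ratios of 3.36 and 2.89.

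**Figure D2:**
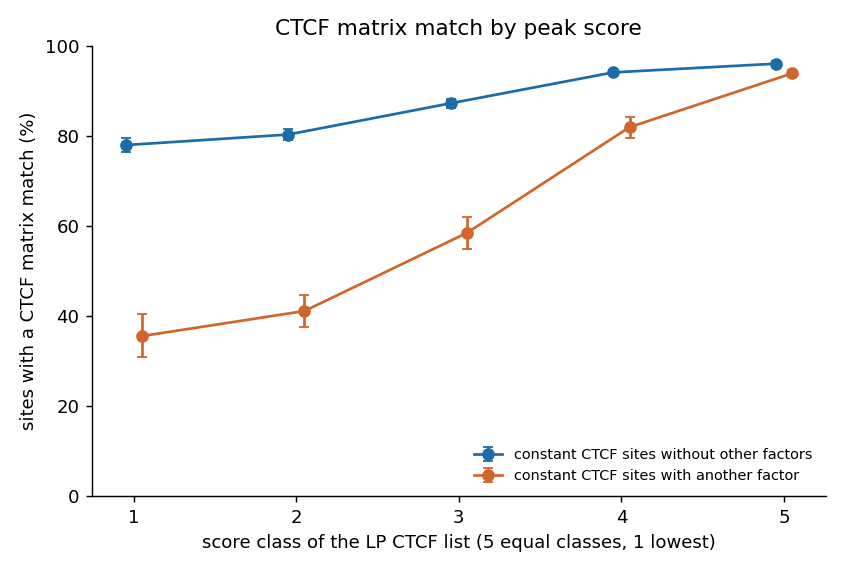
Share of sites with a CTCF matrix match (percent, with 95% Wilson intervals) in each of 5 equal classes of the LP CTCF list by peak score, for constant CTCF sites without other factors and constant sites with another factor. Members run from 78.0% to 96.1%, and co-bound sites from 35.6% to 93.9%.

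The strings of RUNX and PU.1 were rarer in members than in co-bound sites. The RUNX string (TGTGGTT or TGCGGTT, both strands) was in 5.34% of members, close to the 5.42% of their flanking windows, and in 9.10% of co-bound sites (odds ratio 0.563, Fisher's exact test, adjusted p = 3.50e-25). All LP CTCF peaks held it in 12.4%, a share that includes the B2 repeats: it was in 29.5% of constant B2 sites without other factors, and with B2 peaks kept the odds ratio turned to 1.17. By the rule no member overlapped a RUNX1 peak, while 61.9% of co-bound sites overlapped an LP RUNX1 peak. The lower share of the RUNX string in members may therefore follow largely from how they were chosen. The string of PU.1, a myeloid and lymphoid progenitor factor (GAGGAAGT, both strands), was in 1.51% of members, 1.30% of their flanks and 1.7% of all LP CTCF peaks. In co-bound sites it was in 3.56% (odds ratio 0.416, Fisher's exact test, adjusted p = 1.18e-21). The paper reports PU.1 motifs as enriched at many RUNX1 and Med12 peaks. The lower share of the PU.1 string in members may therefore also follow largely from how they were chosen. The string of RBPJ, the DNA-binding partner of Notch (GTGGGAA, both strands), was in 4.18% of members, 4.24% of their flanks and 4.84% of co-bound sites. The flanks' values lie within the members' intervals for the RUNX string (5.04 to 5.65%) and the RBPJ string (3.92 to 4.46%), and just under that for the PU.1 string (1.35 to 1.68%). A string for the AP-1 transcription factors was rarer in members, at 2.78% (2.57 to 3.01%), than in their flanks (3.48%) and in co-bound sites (4.37%).

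Members without a match numbered 2481 (11.7%). Their median LP score was 43.3, against 89.0 for those with one, but the highest reached 450.6. Of them, 38.3% were intergenic and 15.6% lay in a repeat, against 48.0% and 9.91% of those with a match. A further match that did not overlap the first was found in 715 members (3.36%), 386 of these on the same strand, and the median LP score was 92.1 with 2 matches and 88.9 with 1.

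The motif lay close to the peak centre. The centre of the match was 9.5 bp from the peak centre at the median and within 20 bp in 89.3% of members. It was shifted along its own direction by 6.5 bp at the median. Matches fell on both strands alike, 9297 on the plus and 9493 on the minus strand.

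Bases were also uneven outside the 20 positions. Counted from the first core base as 0, T at position -12 was found in 49.1% of members with a match, C at -10 in 42.5%, G at +18 in 40.0% and C at +21 in 42.6%, against 4 bases of roughly equal share farther out. An upstream motif read by the last zinc fingers of CTCF is known from other work. The commonest 6 letters in that region were TGCAGT, which began at position -17 in 2.32% of members with a match, against 0.0424% at each outer position. With a start at -18 or -17 it was in 745 members with a match (3.96%, interval 3.70 to 4.25%). The share was 4.12% in co-bound sites with a match (3.60 to 4.71%) and 1.44% in stage-specific ones (1.01 to 2.05%). The 6 letters were picked by their frequency in members, which favours members in this comparison. Members with TGCAGT at these starts had a median LP score of 126.0, and those without it 87.8. In stage-specific sites the medians were 20.6 and 20.7.

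**Figure D3:**
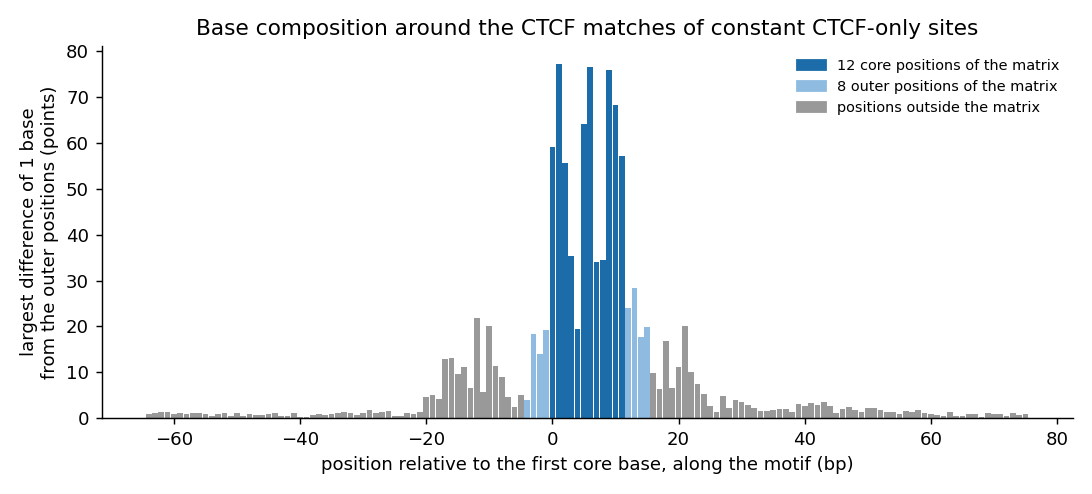
Largest difference, in percentage points, between the share of 1 base at a position and its mean share at the outer positions, along the motif of the 18790 members with a match; dark bars are the core, light bars the other matrix positions and grey bars positions that the matrix did not use. Grey bars rise again upstream near -12 and downstream near +21.

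A CpG, the dinucleotide whose methylation is known to hinder CTCF binding, was in the core of 1349 members with a match (7.18%). The share was 13.1% in co-bound sites and 5.57% in stage-specific sites. Members with a CpG in the core had a median LP score of 115.1, and those without one 87.2. Over the whole 200 bp, the mean number of CpGs was 2.94 in members, 5.53 in co-bound sites and 3.21 in stage-specific sites. The higher CpG share of co-bound sites was therefore not confined to the core. The median GC content of the 200 bp was 48.0% in members and 52.0% in co-bound sites, with 45.5% in the flanks of members.

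In the authors' annotation, 46.9% of members were intergenic and 44.2% intronic, with 2.66% in exons, 3.41% at transcript ends and 1.93% in 3′ UTRs. The intergenic share of co-bound sites was 45.7% (odds ratio 1.05, Fisher's exact test, adjusted p = 0.104), and other choices of processing moved this ratio to either side of 1. Members lay 22.6 kb from the nearest start site at the median, co-bound sites 14.2 kb and stage-specific sites 23.9 kb. Repeats other than B2 held 10.6% of members, 7.60% of co-bound sites and 18.3% of stage-specific sites. The LTR class was the commonest among members (5.00%), led by ERVL-MaLR elements (2.43%), before LINEs (2.35%) and other SINEs (1.76%).

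Members were spread over all chromosomes. On the autosomes their density ran from 6.40 per Mb on chromosome 3 to 11.7 per Mb on chromosome 11, and it was 4.22 per Mb on the X chromosome and 0.0436 per Mb on the Y chromosome. As a share of LP CTCF peaks, members did not follow this order. The share was 49.8% on chromosome 3, 40.3% on chromosome 11 and 55.4% on the X chromosome, against 46.9% in all. Over the 19 autosomes the density of members followed that of protein-coding genes (Spearman's rho 0.884, Pearson's r 0.830). This describes chromosomes that also differ in base composition. The density of all LP CTCF peaks was not compared, so the relation is not shown to be particular to members. The member nearest to an annotated start site was 105 bp away by the deposited distance, in a non-coding exon of Pnp2 on chromosome 14 (score 24.0), and it held no match. The farthest lay 1769486 bp away at chr2:99236943-99237343 (score 84.7) and held one, although GENCODE places the start of the coding gene Gm10800 569.8 kb from it.

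The spacing and direction of neighbouring members were not used by the rule either. Neighbours lay 49.2 kb apart at the median (quartiles 17.8 and 118.9 kb), and 885 of 21251 gaps were over 500 kb. Between neighbours with a match, 50.5% of 18769 pairs had the same orientation, 24.7% were convergent (motifs towards each other) and 24.8% divergent. Equal numbers of convergent and divergent pairs are nearly forced along a chromosome, since each turn of direction alternates with the other, so the distances are the measurement. Convergent neighbours lay 83.1 kb apart at the median (interval 78.8 to 87.2 kb), divergent ones 43.1 kb (40.7 to 44.9 kb) and those of the same orientation 54.3 kb (52.3 to 56.2 kb). The intervals come from binomial order statistics and do not overlap. They treat pairs as independent although adjacent pairs can share a site, so they are a description and not a test.

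By distance, the convergent share rose from 14.0% of pairs at 1 to 5 kb (154 of 1102) to 35.7% at over 200 kb (1091 of 3054). The divergent share was 28.0% at 1 to 5 kb and 16.7% at over 200 kb, and both shares were nearly equal at 50 to 100 kb (25.5% and 24.5%). With the comparison limited to neighbours with no other LP CTCF peak between them, a choice made after seeing the data, the ratio of the convergent to the divergent median was 2.16, against 1.93 for all neighbours.

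**Figure D4:**
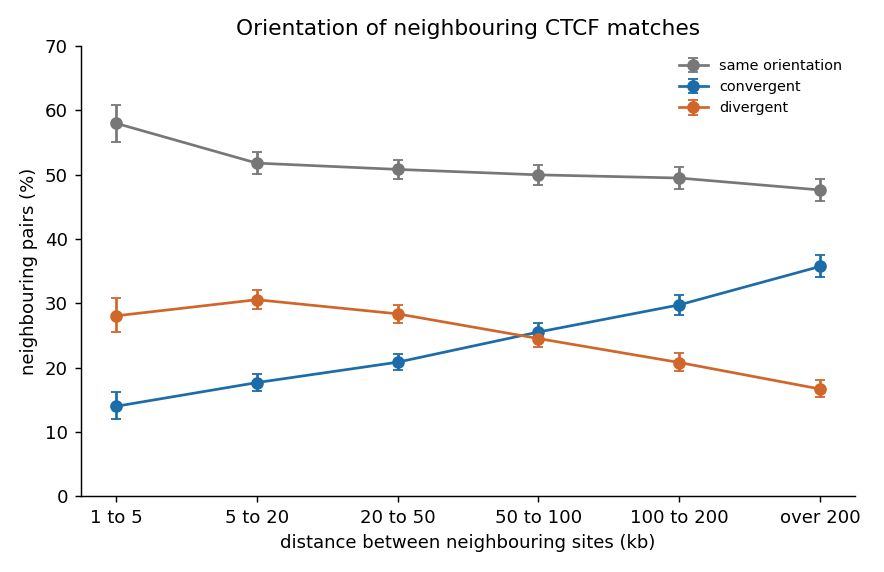
Share of neighbouring pairs of members (percent, with 95% Wilson intervals) whose motifs have the same orientation, converge or diverge, by the distance between the sites in kb; the 22 pairs under 1 kb are left out. The convergent line climbs from 14.0% to 35.7% while the divergent line falls to 16.7%.

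The longest run of 1 orientation and the next longest stood at antigen receptor loci. The members with a match formed 9313 runs, of 2.02 members on average, and 537 runs held 5 or more. The longest by far was 84 members on the minus strand at chr12:113205769-116028285, from below Ighm through the variable (V) genes of the immunoglobulin heavy chain. The next was 21 members on the plus strand at chr14:52580512-53547549, among the V genes of the T cell receptor alpha and delta chains. No other run was over 12. A run of 12 at chr14:53776864-54583836 began among the same V genes. Runs of 12 at chr1:151035151-152232127 and chr10:116554624-117330702 lay away from these loci. The V regions themselves were looked at after these runs were seen. Between the first and last Ighv gene lay 82 members of 121 LP CTCF peaks, and all 81 with a match were on the minus strand. The V genes of Tcra and Tcrd had 44 members, 35 plus and 3 minus, those of Tcrb 13 members, 9 plus and 3 minus, and those of the kappa light chain 18 members, 12 plus and 5 minus. LP scores in the heavy chain region ran from 15.2 through a median of 69.8 to 226.6, and Phase 1 scores from 16.6 through 53.8 to 207.1. CTCF at these V genes is known for its part in V gene recombination. The highest-scored member with a match in each of both runs is shown, the first in the heavy chain region (226.6 in LP, 207.1 in Phase 1), the second in the alpha and delta region (184.6 and 191.4).
chr12:114650613-114650652: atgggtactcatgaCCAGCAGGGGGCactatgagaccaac
chr14:53505557-53505596: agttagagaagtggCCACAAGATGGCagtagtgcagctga

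The 3 densest windows of 100 kb each held 9 members. At chr1:180911290-181011290, around Lefty1, Tmem63a and Ephx1, all 9 LP CTCF peaks were members, and 7 of the 8 with a match were on the plus strand. At chr2:38592252-38692252, around Nek6 and the proteasome gene Psmb7, 9 of 11 LP CTCF peaks were members, with 4 matches on each strand. At chr5:120094788-120194788, in and beside Rbm19, 9 of 10 were members, with 2 plus and 6 minus matches.

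At the 10 T-lineage genes looked up, the nearest members before and after the gene were 35.3 to 1256.2 kb apart, with a median of 124.5 kb. Orientation could be set on both sides for 7 genes: 2 pairs were convergent, 2 divergent and 3 of the same orientation. Gata3, a transcription factor gene of early T cells, and Thy1, a surface marker gene of T cells, had the convergent pairs. The Gata3 pair is shown, together with the upstream site of Thy1 and the site before Bcl11b, the gene of a T-lineage commitment factor.
left of Gata3, chr2:8754312-8754351: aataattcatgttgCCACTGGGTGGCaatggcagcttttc
right of Gata3, chr2:10010462-10010501: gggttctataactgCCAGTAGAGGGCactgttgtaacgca
left of Thy1, chr9:43984801-43984840: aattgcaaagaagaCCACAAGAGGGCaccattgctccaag
right of Bcl11b, chr12:108041734-108041773: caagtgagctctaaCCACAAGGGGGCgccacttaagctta
The left Gata3 site had a score of 104.0 in LP and 130.3 in Phase 1 and lay 1102.8 kb from the gene. The right one, in an intron of Taf3, had 198.9 and 235.9 and lay 120.5 kb away. This was the widest of the 10 spans. The upstream Thy1 site had 258.2 in LP and 253.7 in Phase 1, while the one 4.49 kb past the gene had only 16.3 and 24.0. The Bcl11b site, 38.1 kb before the start of the gene, had 122.5 and 88.6, and the member on its other side lay 678.6 kb away at 20.9 and 22.4 with no match.

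Around Tcf7, the gene of the Notch-induced factor TCF1, the members were weak on both sides (29.6 and 38.9 in LP, 36.1 and 34.5 in Phase 1) and divergent. Around Lck, the gene of a T cell receptor kinase, they were divergent and only 35.3 kb apart, with LP scores of 43.7 and 126.1. Hes1, a direct Notch target, had weak members without a match on both sides (16.3 and 30.7 in LP), 350.9 kb apart. Il2ra, which encodes CD25, and Ptcra, which encodes the pre-T cell receptor alpha chain, had pairs of the same orientation, and at Zap70 the right member had no match. Members also lay inside 6 of these 10 genes, 1 each in Notch3, Hes1, Gata3, Tcf7, Lck and Il2ra. The one in Hes1 was the only LP CTCF peak inside that gene. The paper, in contrast, reports that the Hes1 gene body held none, and this difference was not looked into.

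Of 10 loci known for CTCF binding, 3 had a pair whose orientation could be set on both sides (Hbb-bt, Ighm and Trbc1, all of the same orientation). In the other 7 at least 1 of the nearest members lacked a match by the matrix, among them both sides of Hoxa13, where the LP scores were as high as 227.3 and 105.6. The member right of H19, 2.64 kb from this imprinted gene and with scores of 116.9 and 152.6, also lacked one, and its focus ratio was 0.651. Firre, an X-linked non-coding RNA gene with many CTCF sites, held 16 LP CTCF peaks, of which 3 were members.

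The lists of Notch1-IC, the released intracellular domain of Notch1, and of cells with guide RNAs were not part of the rule. In the 7 lists of Notch1-IC and of RUNX1 in cells with guides, which held 152 to 2094 peaks each, 3 members were found in all (0.0141%), against 1.73% of all LP CTCF peaks and 5.32% of co-bound sites. All 3 were in Notch1-IC lists, 2 in that of Phase 2 cells, 1 in that of LP cells and 0 in that of Phase 1 cells. In the 4 RUNX1 lists the count was 0 of 21280, which allows a share of up to 0.0141% if 3 counts are taken as the limit behind a count of 0, for counting error alone. Since RUNX1 peaks were kept out by the rule in cells without guides, low shares in these lists follow largely from the choice of members.

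The Med12 lists of cells with guides differed more. In Phase 1 cells with the control guide, 44 members (0.207%, interval 0.154 to 0.277%) were in the Med12 list, against 9.83% of all LP CTCF peaks. With the guide against Cbfb, the gene of the partner that RUNX proteins need for stable DNA binding, 673 members (3.16%, interval 2.94 to 3.41%) were, against 13.4% of all LP CTCF peaks. Of these, 647 were in the sgCbfb list only, 26 in both and 18 in the sgCont list only. The lists were of similar length, 19053 peaks with sgCont and 18099 with sgCbfb. Of co-bound sites, 28.4% were in the sgCont list and 42.5% in the sgCbfb list, so the higher share in the sgCbfb list was not found at members alone. By score class from 1 to 5, the co-bound shares were 37.7%, 46.6%, 39.5%, 20.9% and 23.4% in the sgCont list and 29.1%, 37.0%, 36.6%, 27.5% and 51.4% in the sgCbfb list, so they were lower with sgCbfb in classes 1 to 3 and higher in classes 4 and 5. Of the 5184 sgCbfb peaks that overlapped no sgCont peak, 646 (12.5%) lay at members and 2330 (44.9%) at any LP CTCF peak. Of the 6138 sgCont peaks that overlapped no sgCbfb peak, 18 (0.293%) and 750 (12.2%) did.

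Most of these members had high CTCF scores. Those in the sgCbfb Med12 list had a median LP CTCF score of 201.0, against 78.8 for members in neither list. From score class 1 to score class 5 of the LP list, 0, 9, 10, 104 and 550 members were in the sgCbfb list, which is 14.2% of the members in score class 5 (interval 13.1 to 15.3%) and 1.77% of those in score class 4. For the sgCont list the counts were 1, 7, 5, 6 and 25. Of the members in the sgCbfb list only, 93.7% held a CTCF match and 4.79% the RUNX string. The Med12 peaks at members were weak, with a median score of 18.8 against 36.4 for all sgCbfb peaks and a highest of 61.5. With only Med12 peaks of at least 30 counted, chosen after seeing the data, the counts were 55 members with sgCbfb and 9 with sgCont. Each list pools 2 replicates, so this difference has no replicate check, and the rule itself removed members that bound Med12 in cells without guides. A low share in the sgCont list therefore follows largely from the choice of members, and the rule may act unequally on the 2 lists. The study describes its ChIP-seq of Cbfb-deficient cells as made from few cells, a condition whose part in the difference was not tested.

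**Figure D5:**
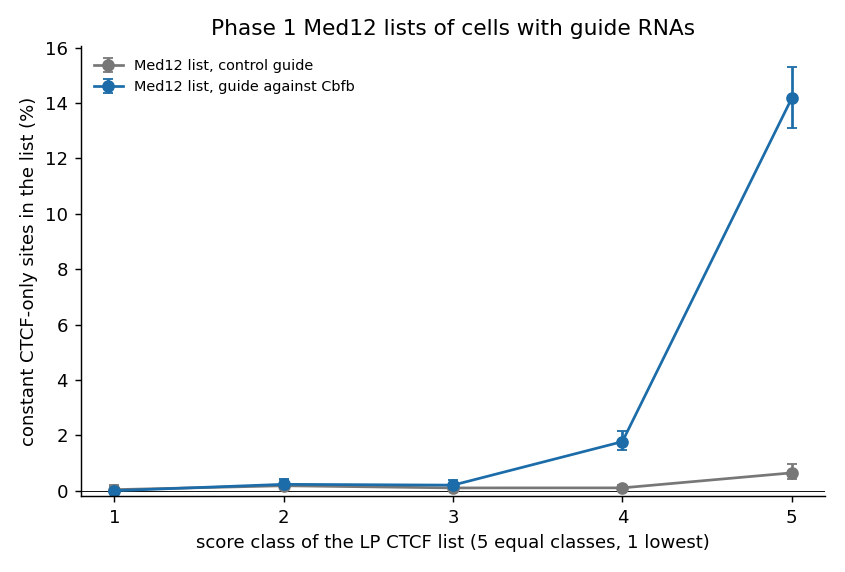
Share of constant CTCF sites without other factors that overlap a Med12 peak in Phase 1 cells with the control guide or with the guide against Cbfb (percent, with 95% Wilson intervals), by score class of the LP CTCF list (5 equal classes, 1 lowest). With the guide against Cbfb the share reaches 14.2% in class 5, and with the control guide 0.644%.

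The edge of the rule cut through sites that were much alike. The nearest peak of another factor was 10.3 kb away at the median, but 1089 members (5.12%) had one within 500 bp and 125 within 50 bp. Members within 50 bp had a median LP score of 67, and 60.5% of the 124 that could be searched held a match. The 115 co-bound sites that shared 50 bp or less with another factor's peak had a median LP score of 81.3, and 71.3% held a match. With distance from other factors the share of members with a match went on to 73.9% at 51 to 500 bp, 86.0% from there to 5000 bp, 89.8% up to 50 kb and 92.6% farther away. Their median LP score did not follow this order: it was highest, 107.6, in the band that ends at 5000 bp and lowest, 58.2, beyond 50 kb. At the other edge, 992 members (4.66%) had an LP score under 20, near the lowest of the list.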

How the data were processed

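Per the labels and the study's methods, the authors aligned reads to mm10 with Bowtie 1.1.1, called peaks with HOMER and kept those reproducible between 2 replicates, so each list pools a pair and no value per replicate or read depth was used. The authors deposited a peak score (scale not given in the sources used here), a focus ratio (a fraction, 0 to 1) and an annotation for each peak. The deposited annotation set promoters and B2 repeats. Lists were compared by overlap (at least 1 bp). Sequence came from GRCm38.p6 and genes from GENCODE M21, both of the mm10 build. Shares carry 95% Wilson intervals. The 7 planned comparisons used two-sided Fisher's exact tests with Benjamini-Hochberg adjustment in Python 3.11.15 with scipy 1.17.1, pysam 0.24.0 and statsmodels 0.14.6, and scripts were tested on simulated data. Peaks named were the 10 highest by LP score, the 3 densest windows, the nearest and farthest from a start site, and neighbours of 2 fixed lists of 10 genes, except for a neighbour that is not reported here. The highest-scored site of each of the 2 longest runs of orientation was added after the runs were seen. Members and lists were chosen with earlier results of these data known.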

Additional observations from a re-analysis of the deposited data

How the results depend on the processing

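No paired analysis was possible because each deposited list combines both replicates, and for the same reason no replicate could be left out. The alternatives changed the overlap, the minimum score, the treatment of B2, promoters and other factors, the window, the motif and the score classes. Of 60 repeats of the 6 motif comparisons, 58 kept their direction and their side of the threshold. The exceptions came with B2 peaks kept, where the odds ratio against co-bound sites was 0.982 for the CTCF string and 1.17 for the RUNX string. The matrix comparison with co-bound sites ranged from 1.41 to 4.05, and that with stage-specific CTCF-only sites from 1.72 (score classes) to 4.01. The intergenic odds ratio was 0.948 with centres within 100 bp and 0.920 without peaks within 1 kb of a TSS, the latter past the threshold in the opposite direction (Fisher's exact test, adjusted p = 0.00529), and it passed the threshold above 1 at 1.13 (minimum score 30), 1.14 (no other factor within 500 bp), 1.08 (Notch1-IC and guide lists counted) and 1.13 (score classes). The cause was not tested. The number of members ran from 19690 to 30804, the highest with B2 kept. The median spacing was 45.9 kb with centres within 100 bp, 30.5 kb with B2 kept, 50.9 kb without peaks near a TSS, 52.8 kb with no factor within 500 bp and 51.9 kb with the further lists counted. The ratio of convergent to divergent distance was 2.26 at a minimum score of 30, 1.61 with B2 kept, 1.43 by the exact string and 2.16 for neighbours with no CTCF peak between them. Members in the sgCont Med12 list numbered 9 at a minimum score of 30, in every list or in that list alone, 86 with centres within 100 bp, 27 without peaks near a TSS, 18 with no factor within 500 bp, and 0 by construction with the further lists counted. Members in the sgCbfb list, all of whose alternatives were chosen after seeing the data, numbered 85 and 55 at those minimum scores. Read depth per list was not used here, and a weak peak can miss a list.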
